A study of Mus musculus with 24 samples.

Results

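The 9 genes described here carry the circadian clock's timing into liver physiology or modify the clock itself: Dbp, Tef, Hlf, Nfil3, Bhlhe40, Bhlhe41, Ciart, Noct and Usp2. They were taken by gene symbol, 9 of the 25239 genes listed in each of the authors' RNA tables, together with every m6A site assigned to them, 26 of 52025 sites in the 8-week table, 29 of 52315 in the 28-week table and 25 of 51883 in the table of wild-type age. The study measured liver RNA of 12 C57BL/6 mice, 3 in each of 4 groups: wild type at 8 weeks, ApoF gene knockout at 8 weeks, wild type at 28 weeks and ApoF gene knockout at 28 weeks. From each liver 2 libraries were made, 1 of input RNA and 1 of RNA immunoprecipitated (IP) for N6-methyladenosine (m6A), a methylated base of messenger RNA, which gives 24 libraries. ApoF is an apolipoprotein made by the liver. No other allele or treatment is named in the labels. The labels do not give the time of day of harvest, so a difference in time of day between groups cannot be told apart from the groups themselves.

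In the liver clock, the activator pair Clock and Bmal1 (gene Arntl) binds E-box sequences and drives its own repressors, the Per and Cry proteins, so that the RNA of its targets peaks and falls once a day. Dbp, Tef and Hlf are PAR bZIP activators that bind D-box sequences and pass the rhythm on to liver genes of drug, bile acid and lipid metabolism, and Nfil3 is a bZIP repressor of the same D-boxes. Bhlhe40, Bhlhe41 and Ciart repress Clock and Bmal1. Noct encodes nocturnin, a rhythmic phosphatase of NADP and NADPH, and Usp2 encodes a rhythmic deubiquitinase that acts on clock proteins. Dbp, Tef, Ciart, Noct and Usp2 are known for wide daily ranges of RNA in liver.

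Promoter letters were read from RefSeq for build GRCm38.p6, as the 250 bases before an annotated transcript start, for 8 of the 9 genes, and are shown for the genes whose RNA moved together with age in wild type and for Bhlhe41 and Nfil3, whose ratios had the opposite sign there without passing the test. Capitals mark the E-box letters CACGTG, searched on both strands. Ciart held 3 E-boxes, their first bases 116, 58 and 44 bases before the start. Each of the Tef windows, which stand before different starts, held 1, and Bhlhe41 held 1. In all, 3 of the 8 genes held an E-box. Dbp, Noct, Usp2 and Nfil3 held no match, which says only that these letters are not in these windows, and clock elements of Dbp are known within its introns. The Usp2 and Nfil3 windows lie inside the genes' annotated spans, chr9:44067021-44095627 and chr13:52967209-52982878. The bases before those spans were not searched. The windows lie at chr3:95882229-95882478 on the minus strand for Ciart, chr15:81802423-81802672 and chr15:81811164-81811413 on the plus strand for Tef, chr6:145865421-145865670 on the minus strand for Bhlhe41, chr13:52981040-52981289 on the minus strand for Nfil3, chr7:45704997-45705246 on the plus strand for Dbp, chr3:51224197-51224446 on the plus strand for Noct and chr9:44084670-44084919 on the plus strand for Usp2.
Ciart: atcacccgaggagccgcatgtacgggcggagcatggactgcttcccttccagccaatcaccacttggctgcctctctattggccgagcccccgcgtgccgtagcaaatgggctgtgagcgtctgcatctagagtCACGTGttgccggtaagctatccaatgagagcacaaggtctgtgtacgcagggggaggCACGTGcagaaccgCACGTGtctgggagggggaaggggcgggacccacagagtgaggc
Tef, first start: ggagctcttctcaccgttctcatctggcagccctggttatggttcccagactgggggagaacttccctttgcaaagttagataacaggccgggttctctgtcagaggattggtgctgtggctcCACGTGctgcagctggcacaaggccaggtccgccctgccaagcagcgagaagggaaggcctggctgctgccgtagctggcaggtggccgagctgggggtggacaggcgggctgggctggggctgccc
Tef, second start: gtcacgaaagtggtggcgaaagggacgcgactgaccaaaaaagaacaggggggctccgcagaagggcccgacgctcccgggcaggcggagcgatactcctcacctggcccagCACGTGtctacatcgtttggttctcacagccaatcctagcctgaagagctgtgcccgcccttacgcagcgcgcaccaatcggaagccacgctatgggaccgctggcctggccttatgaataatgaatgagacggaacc
Bhlhe41: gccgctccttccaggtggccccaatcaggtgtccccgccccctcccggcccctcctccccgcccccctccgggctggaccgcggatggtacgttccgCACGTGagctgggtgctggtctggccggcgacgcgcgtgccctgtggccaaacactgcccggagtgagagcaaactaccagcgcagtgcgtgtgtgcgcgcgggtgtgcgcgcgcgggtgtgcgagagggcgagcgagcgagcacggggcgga
Nfil3: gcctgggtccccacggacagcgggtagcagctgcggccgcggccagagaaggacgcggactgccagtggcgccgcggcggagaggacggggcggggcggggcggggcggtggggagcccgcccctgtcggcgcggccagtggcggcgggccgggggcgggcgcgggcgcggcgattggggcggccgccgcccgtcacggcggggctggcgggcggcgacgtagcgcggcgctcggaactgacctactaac
Dbp: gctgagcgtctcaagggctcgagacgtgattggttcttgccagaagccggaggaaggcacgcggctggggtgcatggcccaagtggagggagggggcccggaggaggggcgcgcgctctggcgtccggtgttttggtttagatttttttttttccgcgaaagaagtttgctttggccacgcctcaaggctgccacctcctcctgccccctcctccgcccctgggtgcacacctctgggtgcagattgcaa
Noct: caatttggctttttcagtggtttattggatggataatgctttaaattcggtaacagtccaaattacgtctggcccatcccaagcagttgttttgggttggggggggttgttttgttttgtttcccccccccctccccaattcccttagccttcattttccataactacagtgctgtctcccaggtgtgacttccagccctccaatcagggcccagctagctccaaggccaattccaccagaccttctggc
Usp2: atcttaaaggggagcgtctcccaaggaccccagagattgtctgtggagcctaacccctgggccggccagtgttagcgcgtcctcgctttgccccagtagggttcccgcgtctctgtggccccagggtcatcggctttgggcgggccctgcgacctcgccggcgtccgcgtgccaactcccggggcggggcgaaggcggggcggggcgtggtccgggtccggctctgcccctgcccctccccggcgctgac

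Of 32851 RefSeq windows of the same length, 6.02% held at least 1 E-box and 0.0609%, or 20 windows, held at least 3. The E-prime box CACGTT, the D-box TTANGTAA and the Ror response element, searched on both strands, matched none of the 9 windows of these genes, against 3.85%, 2.06% and 2.04% of all windows. The cyclic AMP response element TGACGTCA stood in Hlf, 9 bases before its start, and in 1.55% of all windows. No member window held more than 1 kind of motif, so no motif overlapped another. A match of letters is a description of the sequence and not a binding site measured here.

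RNA values are the authors' deposited DESeq2 ratios. They are given as log2 ratios ± SE, from 3 livers a group, with a positive sign for a higher knockout or 28-week group, and a gene passed the test at an adjusted p under 0.05. Levels are group mean normalized counts that the authors' deposited table implies from its overall mean and ratio. They are not corrected for length, so they are compared within a gene only, and the tables hold no value per liver. Levels come from the genotype tables unless the age comparison is named. The genotype and age tables were normalized separately, and over 11834 genes the wild-type means of the age table differed by a median of -5.74% at 8 weeks and 4.75% at 28 weeks. In bulk liver, fewer cells of a type and less RNA per cell cannot be told apart. Each comparison shares its groups with 2 of the others, so their values are set side by side and not taken as independent. All 9 genes passed the authors' filter on low counts in all 4 comparisons.

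Apof, the targeted gene, stood at 61.5% of wild type in the 8-week knockout and 49.6% in the 28-week knockout per the authors' deposited table (adjusted p = 2.31e-08 and 2.53e-06). Which part of Apof was deleted is not stated in the labels. Y-linked transcripts set the 8-week wild-type group apart from the other 3. Their summed level over 4 genes was 3.49 there, with Ddx3y, Kdm5d and Uty under 1, against 4965 in the 8-week knockout, 4506 in the 28-week wild type and 4680 in the 28-week knockout per the authors' deposited table. The labels used here give no sex, and what moves with these transcripts cannot be told apart from genotype at 8 weeks, from age in wild type or from the difference of the knockout's effect between ages. At 28 weeks and across age in the knockout, 0 of 4 passed the test (0 at an unadjusted p under 0.05). In the 8-week comparison, 2 of 5 tested erythroid markers were higher in the knockout (summed level 3548 to 12795), 2 of 7 stellate cell and fibroblast markers were higher (11614 to 21075, carried by Col3a1 and Col1a1, list median -0.07) and 2 of 7 lymphocyte markers were lower (373 to 154, with Nkg7 under 1). At 28 weeks, 2 of 7 sinusoidal endothelial markers were lower in the knockout (12404 to 9170). With age in wild type, Alas2 was the 1 of 4 tested erythroid markers that rose (544 to 4379, list median -0.09), 1 of 7 stellate cell markers fell (10950 to 9028) and 1 of 5 cholangiocyte markers rose (1692 to 2104). With age in the knockout 4 of 7 stellate cell markers (20132 to 8068), 3 of 7 sinusoidal endothelial markers (13116 to 9707) and 1 of 5 erythroid markers (12220 to 8100.1) fell. Across all tested genes, 4.98% passed between genotypes at 8 weeks and 0.257% at 28 weeks, 4.24% with age in wild type and 4.49% with age in the knockout. The part of these cell types in the results below was not tested. Of 10 hepatocyte markers, 1 was higher at 8 weeks (Alb), 0 passed at 28 weeks (1 at an unadjusted p under 0.05), 1 rose (Serpina1a) and 1 fell (Tat) with age in wild type, and 1 fell (Alb) with age in the knockout.

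**Figure D1:**
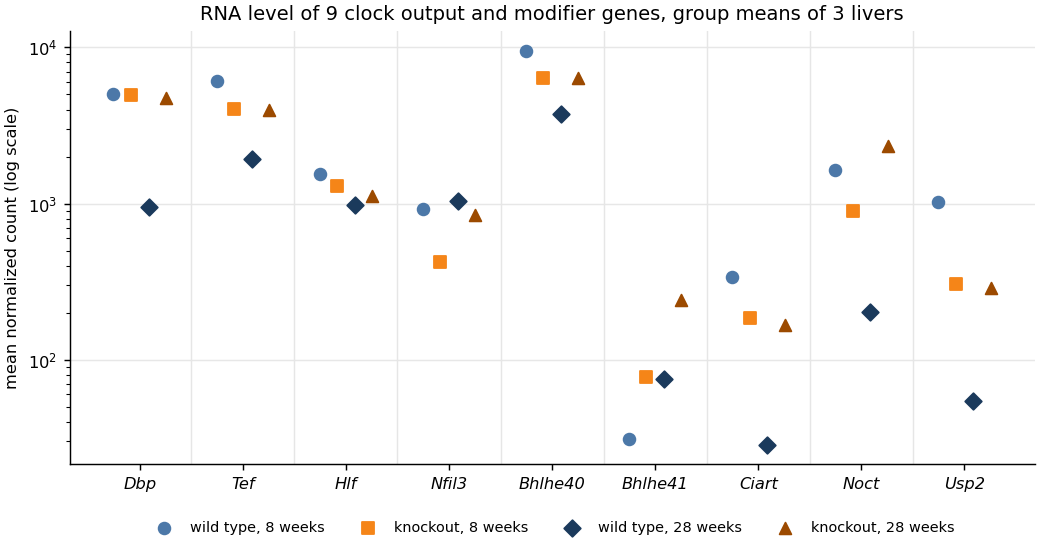
RNA level of the 9 genes in the 4 groups, as mean normalized count of 3 livers on a log scale, from the genotype tables. The 28-week wild-type mark lies lowest for Dbp, Tef, Hlf, Bhlhe40, Ciart, Noct and Usp2, as for Dbp at 949 against 4748 to 5024 in the other groups.

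Of the 4 comparisons, most members passed the test with age in wild type, where 5 of the 9 genes fell and none rose: Usp2, Ciart, Noct, Dbp and Tef. Across all 13474 tested genes, 4.24% passed the test in either direction, 1.86% lower and 2.37% higher. The median log2 ratio of the 9 genes was -1.51, against -0.01 over all tested genes, and 8 of the 9 had an unadjusted p under 0.05. The largest of these 8 p-values, that of Hlf, ranked 1142 of 13474 genes. The 28-week wild-type mean was 5.95% of the 8-week mean for Usp2, 9.42% for Ciart, 13.6% for Noct, 21.0% for Dbp and 35.1% for Tef. The plot of ratios by comparison shows these 5 genes at the far left of this comparison.

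**Figure D2:**
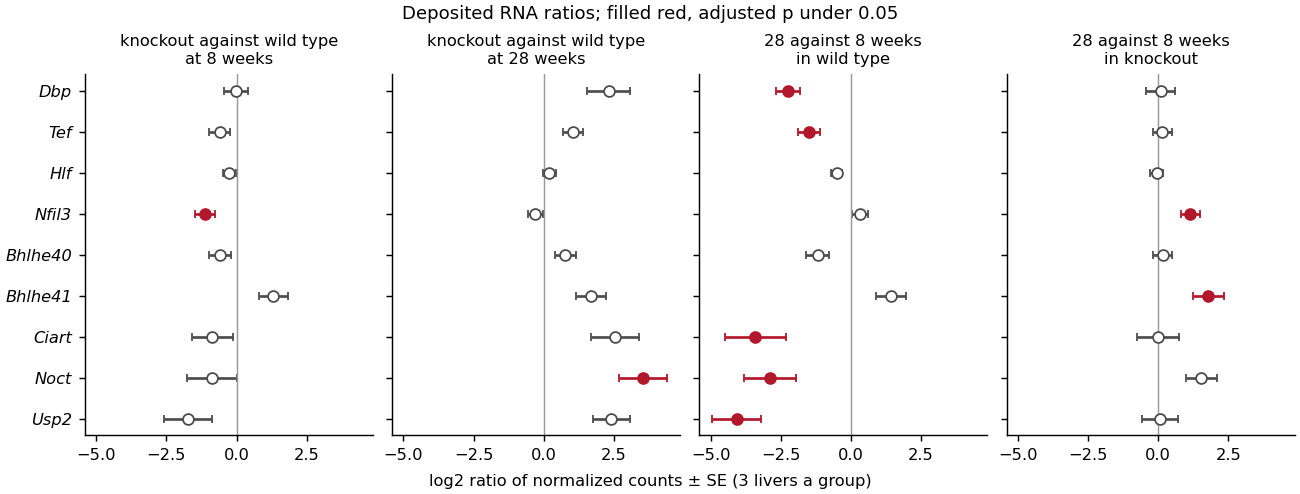
Log2 ratio of RNA in the 4 deposited comparisons, with bars of 1 SE from 3 livers a group and filled red marks where the adjusted p was under 0.05. With age in wild type the ratios run from -4.07 for Usp2 to 1.42 for Bhlhe41, while with age in the knockout 6 of the 9 genes lie between -0.06 and 0.16.

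Among the D-box activators, Dbp went from a mean of 4735 to 993 normalized counts with age in wild type per the authors' deposited table. That is a log2 ratio of -2.25 ± 0.43 (adjusted p = 3.2e-05) per the authors' deposited table, rank 55 of 13474 genes by p. Tef went from 5736 to 2014, or -1.51 ± 0.40 (adjusted p = 0.00687), per the authors' deposited table. Hlf, the third activator, did not pass the test, with a mean of 1456 at 8 weeks and 1022 at 28 weeks (-0.51 ± 0.21, adjusted p = 0.166) per the authors' deposited table. Nfil3, which represses the D-boxes these activators bind, had 874 and 1091 normalized counts (0.32 ± 0.29, adjusted p = 0.701) per the authors' deposited table. So 2 of the 3 activators fell, while Hlf and the repressor Nfil3 did not pass the test.

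The repressors of Clock and Bmal1 gave ratios of both signs with age in wild type. Ciart went from 318 to 30.01 normalized counts, or -3.41 ± 1.09 (adjusted p = 0.0441), per the authors' deposited table. Bhlhe40 had 8936 and 3921 (-1.19 ± 0.40, adjusted p = 0.0624), and Bhlhe41 had 29.5 and 79.2 (1.42 ± 0.53, adjusted p = 0.107), per the authors' deposited table. Neither Bhlhe gene passed the test, and their ratios had opposite signs.

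The rhythmic enzymes both fell. Usp2, the deubiquitinase, went from 965 to 57.4 normalized counts, or -4.07 ± 0.87 (adjusted p = 0.000336), per the authors' deposited table, a 16.8-fold lower mean. Noct, the nocturnin gene, went from 1546 to 210 normalized counts, or -2.88 ± 0.93 (adjusted p = 0.049), per the authors' deposited table. Adjusted over all genes with a p and no filter on low counts, Noct (adjusted p = 0.0636) and Ciart (adjusted p = 0.0573) no longer passed, which left Usp2, Dbp and Tef.

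With age in the knockout 2 genes rose, Nfil3 and Bhlhe41, and none fell. In wild type their ratios were also positive without passing, 0.32 ± 0.29 and 1.42 ± 0.53 per the authors' deposited table. Their difference between genotypes by age did not pass either (Wald test, adjusted p = 0.485 and 0.929). The mean of Nfil3 went from 405 to 894 normalized counts (1.14 ± 0.35, adjusted p = 0.0274) and Bhlhe41 from 74.2 to 257 (1.79 ± 0.54, adjusted p = 0.0256) per the authors' deposited table. Across all 14798 tested genes, 4.49% passed the test and 2.03% were higher. The log2 ratios of Dbp, Tef, Hlf, Bhlhe40, Ciart and Usp2 lay between -0.06 and 0.16 per the authors' deposited table. Noct had 859 and 2489 normalized counts, a ratio of 1.53 ± 0.56 (adjusted p = 0.0941), per the authors' deposited table. The intervals stay wide: the 95% interval of the log2 ratio ran from -1.18 to 1.31 for Usp2 and from -0.95 to 1.12 for Dbp per the authors' deposited table.

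At 28 weeks, Noct alone passed the test between genotypes, and it was higher in the knockout. Wild type had a mean of 201 normalized counts and the knockout one of 2350, an 11.7-fold difference (3.55 ± 0.85, adjusted p = 0.0178) per the authors' deposited table, rank 23 of 14391 genes by p. Few genes passed in this comparison, 0.257% of all tested genes in either direction, 0.0834% higher and 0.174% lower. The summed Y-linked level was 4506 in wild type and 4680 in the knockout. Its part in the ratio of Noct was not tested.

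Most of the other members had higher knockout means at 28 weeks without passing. Usp2 had 54.8 normalized counts in wild type and 290 in the knockout (2.40 ± 0.65, adjusted p = 0.0789) per the authors' deposited table. Dbp had 949 and 4748 (2.32 ± 0.77, adjusted p = 0.264) and Ciart 28.6 and 166 (2.54 ± 0.86, adjusted p = 0.298) per the authors' deposited table. Bhlhe41 had 75.6 and 243 (1.68 ± 0.55, adjusted p = 0.262), Tef 1924 and 3969 (1.05 ± 0.36, adjusted p = 0.341) and Bhlhe40 3744 and 6365 (0.77 ± 0.37, adjusted p = 0.826) per the authors' deposited table. Of the 9 genes, 8 had a positive ratio and 7 an unadjusted p under 0.05, Nfil3 (-0.30 ± 0.26) and Hlf (0.20 ± 0.22) being the others per the authors' deposited table. The largest of these 7 p-values, that of Bhlhe40, ranked 658 of 14391 genes. The median ratio was 1.68, against 0.01 over all tested genes. This comparison shares its 28-week wild-type livers with the comparison of age in wild type, so the values of both depend on the same low group.

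At 8 weeks, Nfil3 fell in the knockout and no other member passed the test. Its mean was 927 normalized counts in the wild type and 424 in the knockout (-1.13 ± 0.37, adjusted p = 0.043) per the authors' deposited table. Across all 15214 genes tested, 4.98% passed in either direction and 2.5% were lower. Without the filter on low counts the adjusted p of Nfil3 was 0.0508, and the call ended.

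The other ratios at 8 weeks were negative, except that of Bhlhe41. Usp2 had 1024 and 308 normalized counts (-1.74 ± 0.87, adjusted p = 0.285), Noct 1641 and 899 (-0.87 ± 0.89, adjusted p = 0.712) and Ciart 338 and 186 (-0.86 ± 0.72, adjusted p = 0.62) per the authors' deposited table. Tef had 6087 and 4001 (-0.61 ± 0.39), Bhlhe40 9484 and 6318 (-0.59 ± 0.38) and Hlf 1545 and 1295 (-0.25 ± 0.22) per the authors' deposited table. Dbp had nearly equal means, 5024 and 4968 (-0.02 ± 0.42), with a 95% interval from -0.83 to 0.80 per the authors' deposited table. Bhlhe41 had 31.3 and 77.8 (1.31 ± 0.52, adjusted p = 0.132) per the authors' deposited table. The median ratio was -0.61, against 0.01 over all tested genes, and 3 of the 9 had an unadjusted p under 0.05. The largest of these 3 p-values, that of Usp2, ranked only 2403 of 15214 genes.

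Whether the knockout's effect differed between the ages was tested as the difference of the log2 ratios at 28 and 8 weeks, which rest on separate livers. It differed for Usp2 and Noct. For Usp2 the difference was 4.14 ± 1.09 (Wald test, adjusted p = 0.0155, rank 126 of 14278 genes) and for Noct 4.42 ± 1.23 (adjusted p = 0.0278, rank 166). Across all 14278 tested genes, 1.58% passed in either direction, 0.784% in this direction and 0.791% in the other. All 9 differences were positive and 6 had an unadjusted p under 0.05, yet Tef (1.65 ± 0.53, adjusted p = 0.0876), Ciart (3.40 ± 1.12, adjusted p = 0.101), Dbp (2.34 ± 0.87, adjusted p = 0.186) and Bhlhe40 (1.35 ± 0.53, adjusted p = 0.219) did not pass. The largest of these 6 p-values, that of Bhlhe40, ranked 725 of 14278 genes. The median difference was 1.65, against 0.003 over all tested genes. Nfil3 (0.83 ± 0.45), Hlf (0.45 ± 0.31) and Bhlhe41 (0.37 ± 0.75) stood lowest in the plot of differences between ages. Taken instead as the difference of the age ratios, the value for Dbp was the same, 2.34, and passed with an adjusted p of 0.0394.

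**Figure D3:**
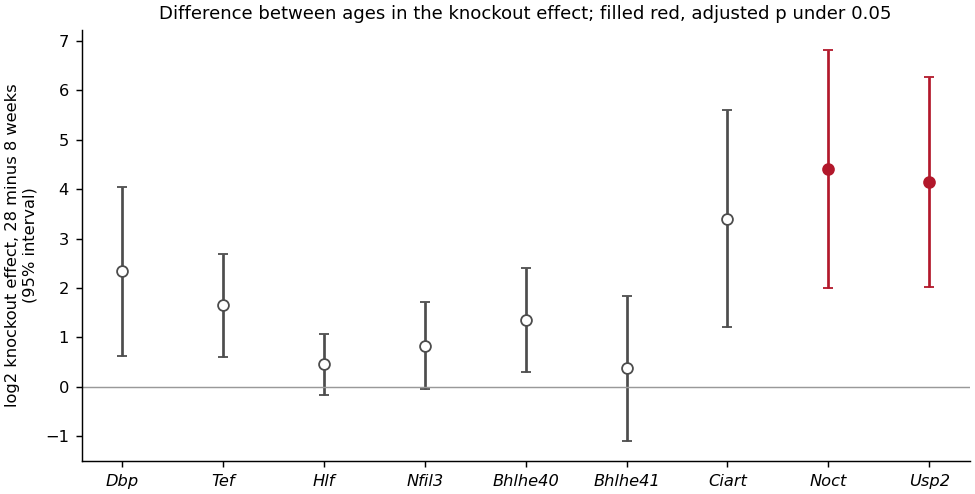
Difference between ages in the knockout effect on each gene, as the log2 ratio at 28 weeks minus that at 8 weeks, with 95% intervals. Filled red marks are Noct at 4.42 and Usp2 at 4.14, whose adjusted p was under 0.05, and the interval of Bhlhe41, centred on 0.37, spans 0.

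For 6 of the 9 genes the errors were wide for their level. Among genes within 2-fold of the same mean normalized count in the same comparison, the SE of Noct was larger than that of 98.2 to 99.4% of genes over the 4 comparisons. It was larger than that of 97.6 to 98.9% for Ciart, 96.9 to 99.2% for Usp2, 96.5 to 98.2% for Dbp, 91.6 to 96.4% for Tef and 90.2 to 96.3% for Bhlhe40. Nfil3 stood at 80.7 to 92.5%, Bhlhe41 at 57.2 to 93.9% and Hlf at 67.7 to 75.7%. At 8 weeks the SE of Noct was 0.89, against a median of 0.19 over 4268 genes of like level. An SE of this kind rests on the spread between the livers of a group, which the group means do not show.

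Input reads at the m6A sites gave a second measure of the same RNA, from the same libraries and with no test. The RNA signs were turned partly on these reads, so a like sign over the genes as a whole was set by that choice. For Usp2 the input reads, from the authors' deposited site sums, were 491 in wild type at 8 weeks and 27 at 28 weeks. The log2 ratio was -4.19 after scaling by the total input reads at all sites. This and the other ratios of input reads were computed here, with 0.5 added to each sum. In the same comparison Dbp had 9403 and 2209 reads (-2.12), Noct 1038 and 116 (-3.19) and Ciart 181 and 12 (-3.89). Between genotypes at 28 weeks, Noct had 124 reads in wild type and 1684 in the knockout (3.69). Dbp had 2294 and 10952 (2.19), and Ciart had 15 and 41 (1.35, below its gene-level ratio of 2.54).

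The rest of the clock loop was set beside these genes, as a list of 18 core clock genes. With age in wild type 2 rose and 3 fell, led by Clock (1.35 ± 0.27, adjusted p = 0.000113) and its relative Npas2 (3.06 ± 0.86, adjusted p = 0.0145), which rose, and Per3 (-2.87 ± 0.73, adjusted p = 0.00458) and Per2 (-2.47 ± 0.68, adjusted p = 0.012), which fell, per the authors' deposited table. With age in the knockout 0 of 18 passed DESeq2's test (2 at an unadjusted p under 0.05). Across all tested genes, 4.24% passed with age in wild type and 4.49% with age in the knockout. The shares were 4.98% between genotypes at 8 weeks, 0.257% at 28 weeks and 1.58% for the difference between ages. Between genotypes at 28 weeks Per2 was higher in the knockout (1.44 ± 0.34, adjusted p = 0.0174) and Csnk1e, a casein kinase of Per proteins, was lower (-1.48 ± 0.33, adjusted p = 0.008) per the authors' deposited table. At 8 weeks Cry1 (-1.18 ± 0.24, adjusted p = 0.000138) and Csnk1e (-1.41 ± 0.44, adjusted p = 0.03) were lower per the authors' deposited table. The genotype effect on Per2 differed between ages by 2.10 ± 0.59 (adjusted p = 0.0294). The median ratio of the list with age in wild type was -0.28, against -1.51 for the 9 output and modifier genes and -0.01 over all genes.

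**Figure D4:**
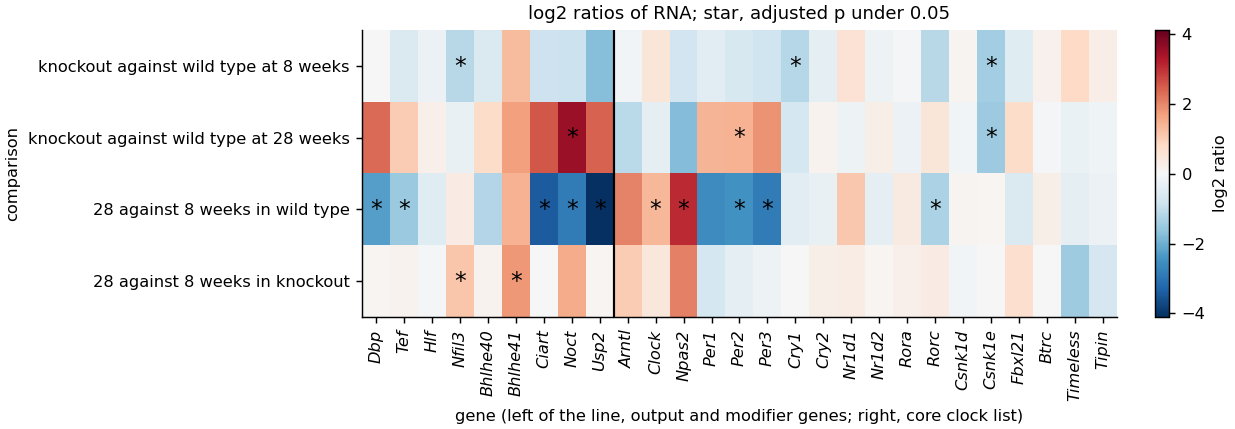
Log2 ratios of RNA for the 9 output and modifier genes (left of the line) and the 18 core clock genes (right) in the 4 comparisons, blue lower and red higher, with a star where the adjusted p was under 0.05. The row of wild-type age holds 5 stars left of the line and 5 right of it, and the row of knockout age holds 2 left and 0 right. Across all tested genes, 4.24% passed with age in wild type and 4.49% with age in the knockout.

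Genes known to be driven through D-boxes or by the clock in liver formed a list of 20. With age in wild type 3 rose and 7 fell, with a median of -0.45. Across all tested genes, 4.24% passed there, 4.98% between genotypes at 8 weeks, 4.49% with age in the knockout and 1.58% for the difference between ages. Insig2, a brake on cholesterol synthesis, rose (1.67 ± 0.21, adjusted p = 1.51e-11) per the authors' deposited table. Cyp7a1, the rate-limiting enzyme of bile acid synthesis, fell (-1.92 ± 0.35, adjusted p = 1.7e-05), as did Por, the electron donor of cytochromes P450 (-1.68 ± 0.34, adjusted p = 0.000116), and Nampt, the rate-limiting enzyme of NAD salvage (-1.46 ± 0.35, adjusted p = 0.00277), per the authors' deposited table. At 8 weeks 1 was higher and 5 were lower in the knockout, led by Nr1i3, the nuclear receptor CAR (-1.48 ± 0.25, adjusted p = 9.33e-07), and its target Cyp2b10 (-1.56 ± 0.36, adjusted p = 0.00095), per the authors' deposited table. Between genotypes at 28 weeks 0 of 19 passed DESeq2's test (1 at an unadjusted p under 0.05), where 0.257% of all tested genes passed. With age in the knockout 0 rose and 2 of 19 fell, Tspan4 (-0.76 ± 0.22, adjusted p = 0.0157) and Cyp7a1 (-1.32 ± 0.39, adjusted p = 0.0224), per the authors' deposited table. The genotype effect differed between ages for Nr1i3 (1.72 ± 0.43, adjusted p = 0.00944) and Cyp2a5, a coumarin hydroxylase with a near-identical copy and so of uncertain count (3.45 ± 0.96, adjusted p = 0.0272).

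Signals that reach the clock from outside, such as glucocorticoid, heat and serum responses, formed a list of 16. With age in wild type 0 rose and 5 of 15 tested fell, led by the heat shock chaperones Hspa8 (-1.27 ± 0.12, adjusted p = 3.47e-23), Hspa1b (-2.01 ± 0.45, adjusted p = 0.000863) and Hspa1a (-2.07 ± 0.51, adjusted p = 0.00333) and by the stress factor Atf3 (-2.11 ± 0.58, adjusted p = 0.012), per the authors' deposited table. Hspa1a and Hspa1b are near-identical copies whose reads the counting could split, so their separate values are uncertain. Hspa8 was also lower in the knockout at 8 weeks (-0.43 ± 0.14, adjusted p = 0.036), 1 of 15 tested, per the authors' deposited table. At 28 weeks 0 of 14 passed DESeq2's test (4 at an unadjusted p under 0.05). Across all tested genes, 4.24% passed with age in wild type and 4.49% with age in the knockout. The shares were 4.98% between genotypes at 8 weeks, 0.257% at 28 weeks and 1.58% for the difference between ages. With age in the knockout Sgk1, a glucocorticoid-induced kinase, fell (-1.16 ± 0.36, adjusted p = 0.0364) per the authors' deposited table, 1 of 15. The genotype effect on Hspa8 differed between ages by 1.33 ± 0.31 (adjusted p = 0.00302), 1 of 13 tested.

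For the 7 members that passed in any of the 4 comparisons, the genes of most similar pattern were found by the distance of 3 log2 ratios, those of genotype at both ages and of age in wild type, among 11626 genes with a mean of at least 50 normalized counts in every table. The 3 ratios rest on 4 group means and share livers. Ciart lay nearest to Zfp966, a zinc finger gene (distance 0.62 log2 units), then to the clock repressor gene Per3 (0.89) and to Usp2 (1.10). Noct lay nearest to Zfp966 (1.12), Ciart (1.14) and Hspa1a (1.56). Usp2 lay nearest to Zfp966 (0.76), the homeobox gene Cux2 (0.89) and Ciart (1.10). Dbp lay nearest to the transporter gene Slc16a5 (0.51) and then to the heat shock genes Hspa1a (0.65) and Hspa1b (0.66). The distance takes no account of SE. At 28 weeks the genotype ratios of Hspa1a (2.23 ± 1.29) and Hspa1b (2.09 ± 1.28) had no adjusted p. Tef was nearest to the transglutaminase gene Tgm1 (0.26), then to 4833422C13Rik (0.27) and the heat shock gene Hsph1 (0.31). Nfil3 had the closest neighbours, Syn3 (0.11), Bbc3 (0.15) and Crebrf (0.15), and Bhlhe41 lay nearest to Clstn3 (0.71), Gpc1 (0.76) and Snhg11 (0.96).

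Overlapping genes could take reads from a member if counting ignored strand. The libraries were stranded per the labels, and the sources used here do not say whether counting used the strand. In the RefSeq annotation of GRCm38.p6, Dbp overlaps Sphk2, the sphingosine kinase gene. Sphk2 rose with age in wild type, where Dbp fell, from 1032 to 1744 normalized counts (0.76 ± 0.23, adjusted p = 0.0345) per the authors' deposited table. With age in the knockout Sphk2 also rose, from 552 to 1362 (1.30 ± 0.22, adjusted p = 1.09e-06), while the ratio of Dbp was 0.09, per the authors' deposited table. At 8 weeks Sphk2 was lower in the knockout (-0.92 ± 0.24, adjusted p = 0.00677) per the authors' deposited table, where the ratio of Dbp was -0.02. C920021L13Rik, which overlaps Ciart, had means of 17.2 to 29.2 normalized counts over the 4 comparisons per the authors' deposited table. The gene that overlaps Bhlhe40, 0610040F04Rik, had means under 0.5, and Gm39325, which overlaps Usp2, has no values in the tables used here.

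The m6A pull-down was read at the sites assigned to each gene. A site's enrichment is the log2 share of IP reads over its share of input reads at all listed sites, so 0 means that the site took the same share of IP and of input reads. Reads were summed by the authors over 3 libraries a group. Totals at all sites were 72868528 to 90420947 IP reads and 74003375 to 80819641 input reads a group. Hlf had more sites than any other member, 10 of 26, 10 of 29 and 8 of 25 in the 3 tables. Usp2 had 2 at 8 weeks and 2 with age but none listed at 28 weeks between genotypes. The site tables were used without coordinates, so sites are named by their rank of input reads within the gene.

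The members' sites spread widely, from -0.62 in Dbp to 1.43 in Hlf in wild type at 8 weeks. The value of 1.43 rests on 30 IP and 11 input reads, with a counting SE of 0.50, at a site without an adjusted p. The median enrichment of the members' sites was -0.09 in wild type and 0.05 in the knockout at 8 weeks, against 0.10 and 0.15 over all sites. At 28 weeks it was 0.02 and 0.08, against 0.12 and 0.11. Sites are ranked within each table, so the deepest site of a gene need not be the same region in each. The deepest site of Dbp had an enrichment of 0.53 in wild type and 0.63 in the knockout at 8 weeks and of 0.84 and 0.68 at 28 weeks, and in the table of wild-type age its deepest site had 0.54 at 8 and 0.69 at 28 weeks. The deepest Bhlhe40 site lay at 0.26 and 0.38 at 8 weeks and at 0.41 and 0.37 at 28 weeks, that of Nfil3 at 0.27, 0.18, 0.18 and 0.14 in the same order, and that of Tef at -0.24, -0.10, -0.07 and -0.09. The deepest Hlf site had an enrichment of -0.20 and -0.15 at 8 weeks and of -0.13 and -0.14 at 28 weeks. The deepest Ciart site had -0.57 and -0.05 at 8 weeks and 0.18 and 0.33 at 28 weeks, that of Bhlhe41 had 1.16, 0.35, 0.87 and 0.43 in the same order, and that of Usp2 had 0.04 and -0.04 at 8 weeks. Sites of Bhlhe41, Ciart and Usp2 had no adjusted p in any table, with 7 to 31 input reads a group at 8 weeks for the 1 site of Bhlhe41.

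**Figure D5:**
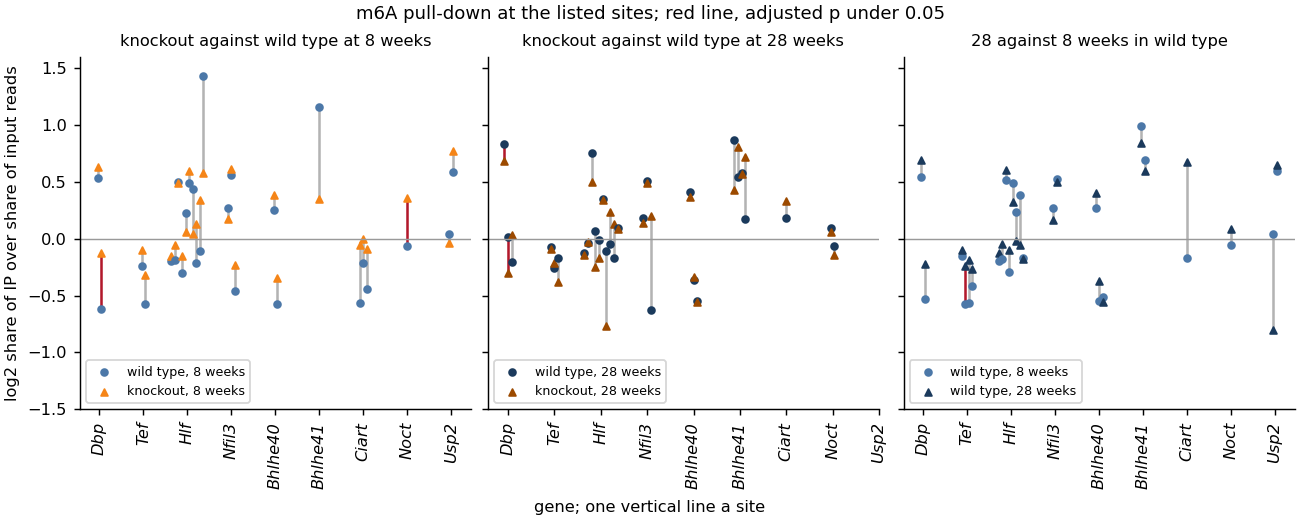
Enrichment of each listed m6A site of the 9 genes, as the log2 share of IP reads over input reads, in the compared groups, with 1 vertical line a site. Red lines are the 5 sites with an adjusted p under 0.05, in Dbp and Noct at 8 weeks, Dbp at 28 weeks and Tef with age in wild type, and the widest grey lines belong to sites with few reads.

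At 8 weeks 2 of the 14 member sites with an adjusted p were higher in the knockout and none lower, while across all sites tested 10.9% passed in either direction, 5.52% higher and 5.43% lower. The second Dbp site had 257 IP and 401 input reads in wild type and 372 and 375 in the knockout (0.45, adjusted p = 0.0369) per the authors' deposited table. The deepest Noct site had 979 IP and 1038 input reads in wild type and 693 and 499 in the knockout (0.34, adjusted p = 0.0174) per the authors' deposited table. Both moved by less than 1.5-fold, while neither gene's RNA passed the test at this age.

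At 28 weeks 2 of 14 tested member sites passed, both in Dbp and both lower in the knockout, while 9.18% of all tested sites passed, 6.62% lower and 2.57% higher. The deepest Dbp site had 3522 IP and 1690 input reads in wild type and 16342 and 9091 in the knockout (-0.18, adjusted p = 0.00362) per the authors' deposited table. Its second site had 614 IP and 520 input reads in wild type and 1410 and 1551 in the knockout (-0.35, adjusted p = 0.0106) per the authors' deposited table. The second site by rank need not be the same site as at 8 weeks. The deepest Noct site, in the gene with the largest RNA ratio, had 145 IP and 116 input reads in wild type and 1864 and 1595 in the knockout (-0.05, adjusted p = 0.923) per the authors' deposited table.

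With age in wild type 1 of 13 tested member sites passed, while 11.3% of all tested sites passed, 9.06% higher and 2.2% lower. It was the second site of Tef, with 1166 IP and 1767 input reads at 8 weeks and 630 and 634 at 28 weeks (0.31, adjusted p = 0.017) per the authors' deposited table. The deepest site of Dbp had 12888 IP and 9033 input reads and then 4044 and 2125 (0.11, adjusted p = 0.0912), and that of Noct 979 and 1038 and then 145 and 116 (0.10, adjusted p = 0.811), per the authors' deposited table. At both sites IP and input reads were lower together at 28 weeks. The site sums hold no spread between animals, so their p may cover counting error only. In a test recomputed here from the sums, with an assumed spread of 10% between animals, none of the members' sites passed in any of the 3 comparisons. Without that spread the recomputed test called 6, 1 and 3 sites at 8 weeks, at 28 weeks and with age in wild type. The authors' adjusted p called 2, 2 and 1.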

How the data were processed

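Livers of 12 mice gave 24 libraries, input and m6A IP, which per the labels were stranded and carried molecular identifiers. HISAT2, StringTie and DESeq were used per the submitters' processing notes, without versions. The genome build, like the site caller, was not given in the sources used here. Signal in the RNA tables was deposited by the authors as mean normalized counts over the compared libraries. The log2 values were deposited by the authors, as DESeq2 ratios in the RNA tables and as ratios of IP over input between groups in the site tables. Site enrichments and ratios of input reads were computed here from the deposited sums. Each p-value, with its adjusted p, was deposited by the authors and is the test used here. The Wald statistic is a score deposited beside each ratio. Each site count is a read number summed by the authors over a group's libraries, per the file headers. The tables used hold no value per library, so a count model was not fitted. The precision of each ratio is its SE, and the depth of single libraries is unknown. Replicates are separate animals per the labels.

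The members and lists were chosen with earlier results of these data known, so no count over them is independent support. All members are named, with their called and deepest sites and at most 4 genes a list and comparison, those with the smallest adjusted p, plus the 3 nearest genes of each called member. A few genes of the lists are not reported here. Apof, Y-linked and overlapping genes were named as checks.

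The numerator group of a ratio is not named, so signs were taken from the values. Contrasts of the 4 groups closed to a median residual of 0.00357 over 13383 genes, against 0.482 with unlike signs. The wild-type sums recurred in a second table at 21900 sites (8 weeks) and 22361 sites (28 weeks), other columns at 26 to 56. Across 11325, 11172 and 11066 genes, not independent of each other, Pearson's r between the ratio of input reads and the deposited RNA ratio was -0.82, -0.73 and -0.87. RNA signs were turned on these grounds, and site signs kept.

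The interaction was a Wald test on the difference of the 2 genotype ratios with Benjamini-Hochberg adjustment. Scripts were tested on simulated data. Recomputed site tests added 0.5 to each count. A site table of knockout age, with 4 count columns whose groups the names do not show, and a sheet of 7 gene names were not used. The software was Python 3.11.15 with scipy 1.17.1, pandas 2.3.3, numpy 2.4.6 and matplotlib 3.10.9.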

Additional observations from a re-analysis of the deposited data

Results flagged for a closer look

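The genotype effect on Noct differed between ages by 4.42 log2 units, from -0.87 at 8 weeks to 3.55 at 28 weeks, and this difference passed its own test (Wald test, adjusted p = 0.0278). The genotype effect on Usp2 differed by 4.14 log2 units, from -1.74 to 2.40 (adjusted p = 0.0155). Neither gene passed the test between genotypes at 8 weeks, and of the 2 only Noct passed at 28 weeks. The 8-week wild-type group lacked the Y-linked transcripts that the other 3 groups had, and the labels do not give the time of day of harvest. The part of either in these differences was not tested.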

How the results depend on the processing

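Counts of called members moved by more than 1.5 times in these settings. Adjusted over all genes with a p and no filter, the RNA count went from 1 to 0 at 8 weeks (Nfil3) and from 5 to 3 with age in wild type (without Ciart and Noct). At an adjusted p under 0.1 it went from 1 to 2 at 28 weeks. For m6A sites, the recomputed test, with 0.5 or with 1 added, called 6 instead of 2 at 8 weeks, 1 instead of 2 at 28 weeks and 3 instead of 1 with age in wild type. With at least 50 input reads a group, 1 site was called at 8 weeks. The recomputed test with an assumed spread of 10% between animals called 0 in each of the 3 comparisons. The authors' adjusted p with at least 1.5-fold also called 0 in each. The cause of these moves was not tested. The other 18 counts stayed within 1.5 times. Of the values of single genes, 146 kept their side of the test or stayed within 1 SE of the main value. A further 3 no longer passed, 1 newly passed and none reversed. Reversal was counted only for values that passed in the main setting. Another 2 moved by over their SE on input reads at the sites, a measure chosen after seeing the data. They were Bhlhe41 at 8 weeks (1.999) and Ciart at 28 weeks (1.35). Of the 146, 36 were ratios implied by the other 3 RNA tables and 24 were ratios of input reads. Neither kind had an adjusted p, so only direction and size could be compared, not the side of the test. The 36 implied ratios were nearly fixed beforehand, because the RNA contrasts closed to a median residual of 0.00357. They are therefore no independent check. No paired analysis was possible because the tables hold group values only, and leaving out single animals could not be run for the same reason. The sites of Bhlhe41, Ciart and Usp2 have no adjusted p, so no call could be made there, and the reason was not tested.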
